A study of Mus musculus with 24 samples.

Results

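The vascular endothelial growth factor (VEGF) family was examined in mouse skin and in dorsal root ganglia (DRG), which hold the cell bodies of sensory neurons. Its members were chosen by gene symbol: the ligands Vegfa, Vegfb, Vegfc, Vegfd and Pgf, the receptor tyrosine kinases Flt1, Kdr and Flt4, and the co-receptors Nrp1 and Nrp2. These are 10 of the 45777 genes in the count table, and all 10 had enough counts to be tested in both tissues. The mice were female BALB/c of 6 weeks. Model mice had received 40 µL injections of 320 µM LL37 into the skin over 2 days; LL37 is a human antimicrobial peptide of the cathelicidin family, and its injection is a model of rosacea. PolyA RNA was sequenced in 24 libraries, of which 6 each were skin and DRG from control mice and 6 each skin and DRG from model mice. The study's design also names oral gabapentin at 100 mg/kg from day 3 and collection of the DRG on day 4. No label says which samples came from mice given gabapentin, what control mice were injected with or when skin was taken, so LL37 and these factors cannot be told apart in the comparisons of model with control. Whether each library of a group is a different mouse is not stated in the labels, and the p-values therefore reflect the spread among these libraries, which may be technical.

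Total counts per library ranged from 45238735 to 68396846. The tissues carried their own markers: 5 keratinocyte genes summed to 6976 to 22713 CPM (counts scaled to the size of the library) in skin and to 2.1 to 3.41 CPM in DRG, and 6 sensory neuron genes summed to 6972 to 9762 CPM in DRG and to 1.94 to 42.5 CPM in skin. Several libraries stood apart in their markers. Control skin library 2 had 742 CPM of 5 hair follicle markers, against 17153 to 25230 CPM in the other 5 control skin libraries and 1181 to 13209 CPM in model skin. Control DRG library 6 had 314 CPM of 10 blood endothelial markers, against 154 to 191 CPM in the other 5 control DRG libraries. Model DRG library 5 had 1635 CPM of 4 red blood cell markers and 32.8 CPM of 4 neutrophil markers, against 132 to 510 and 4.27 to 11.7 CPM in the other 5 model DRG libraries. Model skin library 2 had 103 CPM of 4 T cell markers, against 7.24 to 15.2 CPM in the other 5 model skin libraries.

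VEGF ligands are secreted proteins that bind receptor tyrosine kinases, mainly on endothelial cells, the cells that line vessels. Vegfa binds the receptors encoded by Flt1 and Kdr, Vegfb and Pgf bind Flt1 alone among them, and Vegfc and Vegfd act chiefly on Flt4 of lymphatic vessels. Kdr carries most of the signal for endothelial growth and permeability, Flt1 binds Vegfa tightly with weak kinase activity, and the neuropilins Nrp1 and Nrp2 bind both VEGF ligands and the class of axon guidance proteins called semaphorins. In skin, Vegfa is made largely by epidermal and hair follicle keratinocytes, and in ganglia the neuropilins are also found on neurons.

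Sequences before a RefSeq start site of Kdr, Flt1, Nrp1 and Vegfa are shown. These 4 genes passed the test of model against control skin with any 1 library left out. Each run is the 250 bases before a start site, 5′ to 3′ on the gene's strand, from RefSeq on build GRCm38.p6, with GC boxes (GGGCGG on either strand) in capitals. Kdr lies at chr5:75978456-75978705 on the minus strand and Flt1 at chr5:147726012-147726261 on the minus strand. Nrp1 lies at chr8:128358823-128359072 on the plus strand and Vegfa at chr17:46032378-46032627 on the minus strand. The runs of Kdr, Flt1 and Nrp1 lie inside the RefSeq spans of these genes, whose outer ends on the start side are 75979072, 147726438 and 128358591. They are thus not the bases before the outermost annotated start. The Vegfa run lies outside its span, which ends at 46032377.
Kdr: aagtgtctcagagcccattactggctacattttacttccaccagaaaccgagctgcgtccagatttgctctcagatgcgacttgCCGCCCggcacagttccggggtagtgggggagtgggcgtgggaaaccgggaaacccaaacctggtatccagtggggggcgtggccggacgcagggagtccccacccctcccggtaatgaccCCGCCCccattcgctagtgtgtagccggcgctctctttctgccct
Flt1: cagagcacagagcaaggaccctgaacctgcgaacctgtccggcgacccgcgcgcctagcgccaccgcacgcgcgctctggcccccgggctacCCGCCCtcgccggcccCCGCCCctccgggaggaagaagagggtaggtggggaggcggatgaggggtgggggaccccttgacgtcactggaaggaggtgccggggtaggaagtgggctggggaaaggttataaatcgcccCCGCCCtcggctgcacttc
Nrp1: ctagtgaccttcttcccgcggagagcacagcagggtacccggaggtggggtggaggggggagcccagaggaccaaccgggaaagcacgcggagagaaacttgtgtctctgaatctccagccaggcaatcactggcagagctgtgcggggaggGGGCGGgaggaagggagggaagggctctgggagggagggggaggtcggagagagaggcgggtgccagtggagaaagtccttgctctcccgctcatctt
Vegfa: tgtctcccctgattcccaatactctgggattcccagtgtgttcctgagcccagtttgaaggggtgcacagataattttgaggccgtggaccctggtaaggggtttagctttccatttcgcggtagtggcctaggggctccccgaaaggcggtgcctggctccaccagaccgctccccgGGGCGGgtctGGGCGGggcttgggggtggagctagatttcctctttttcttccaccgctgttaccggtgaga
RefSeq start sites gave 12 windows of 300 bases (250 before and 50 after the start) for the 10 members. A GC box was present in at least 1 window of 9 of the 10 members. Counted by window, it was missing from that of Vegfd and from 1 of Pgf among the 12. It was in 35.7% of all 32851 windows of that length. The member without a GC box was Vegfd. Its window held 2 CpG dinucleotides and 42.0% G and C, against medians of 7 and 52.7% over all windows. The windows of Kdr, Flt1 and Nrp1 held 19, 29 and 14 CpG dinucleotides. The motif CCGGAA (ETS factors), searched on both strands, was in the Kdr window and in 14.9% of all windows. The core bound by hypoxia-inducible factors is ACGTG or GCGTG. On either strand ACGTG was in 1 of the 12 windows of members, that of the other Vegfa start site (chr17:46025114-46025413, not shown), and in 19.6% of all windows. GCGTG was in that window, in those of Kdr, Flt1, Nrp1, Nrp2 and Vegfb and in 1 of Pgf, and in 32.4% of all windows. A match of letters is a description of the sequence and not a binding site.

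The family had a different make-up in the control tissues. Levels of different genes were compared on the authors' TPM values, which are scaled to transcript length as well as to library size. In control skin the order ran from Nrp2 at 35.6 ± 10.9 TPM (SD, n = 6) and Vegfa at 24.8 ± 3.25 TPM, through Vegfb at 13.4 ± 2.74, Nrp1 at 11.9 ± 2.48, Vegfd at 9.32 ± 3.47, Flt1 at 5.95 ± 1.01, Kdr at 5.52 ± 1.56, Flt4 at 2.91 ± 0.766 and Vegfc at 2.64 ± 0.512, down to Pgf at 1.26 ± 0.372 TPM. Neighbours in this order overlapped in their ranges except Vegfa against Vegfb and Vegfc against Pgf. In control DRG Nrp1 led at 58.0 ± 7.99 TPM, followed by Vegfa at 45 ± 2.78, Vegfb at 38.6 ± 5.20, Nrp2 at 28.6 ± 3.85, Flt1 at 15.4 ± 6.06, Pgf at 12.4 ± 0.953, Kdr at 7.05 ± 1.45, Vegfd at 3.77 ± 0.722, Flt4 at 1.34 ± 0.435 and Vegfc at 1.2 ± 0.469 TPM. Here the ranges of Vegfb and Nrp2, of Pgf and Kdr, of Kdr and Vegfd, and of Vegfd and Flt4 did not overlap, and the other neighbours did. The lymphatic ligands and their receptor stood low in the ganglion, and the placental growth factor Pgf stood low in skin.

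**Figure D1:**
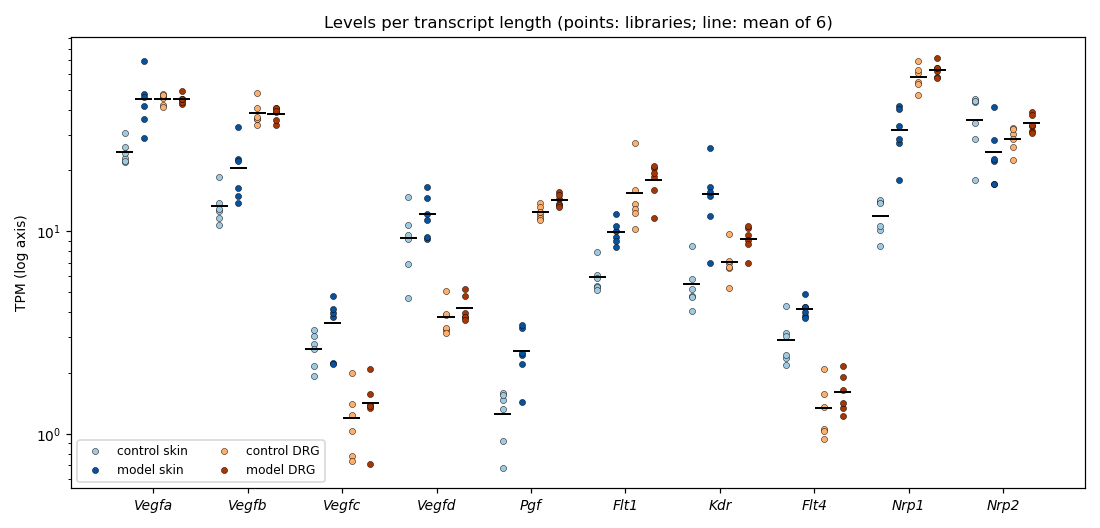
Level of each member in TPM (log axis) in the 4 groups, with 1 point per library and a line at the mean of 6. Nrp2 and Vegfa lead in control skin, Nrp1 and Vegfa lead in DRG, and Pgf is lowest in skin but sixth in DRG.

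As shares of the summed ligand TPM, Vegfa made up 48.5 ± 2.21% in control skin and 44.6 ± 2.81% in control DRG (SD, n = 6 each). Vegfb had a share of 26.0 ± 3.03% in skin and 38.1 ± 2.98% in DRG. The share of Pgf was 2.56 ± 0.940% in skin and 12.3 ± 1.04% in DRG, and that of Vegfd 17.8 ± 4.28% in skin and 3.76 ± 0.853% in DRG. Summed ligand TPM was 51.4 ± 8.62 in control skin and 101 ± 6.22 in control DRG. The ligand pool of the ganglion was thus mostly Vegfa, Vegfb and Pgf, and that of skin mostly Vegfa, Vegfb and Vegfd. The TPM of Flt1 was 1.13 ± 0.290 times that of Kdr in control skin and 2.13 ± 0.356 times in control DRG, and the TPM of Nrp1 was 0.393 ± 0.232 times that of Nrp2 in skin and 2.04 ± 0.223 times in DRG.

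Between control skin and control DRG, 9 of the 10 members passed edgeR's quasi-likelihood test, beside 84% of 21784 genes tested. A gene passed where its p-value, adjusted over all genes tested by the method of Benjamini and Hochberg, was under 0.05. In that test 4 members were higher in skin (42.3% of all genes were) and 5 in DRG (41.6% of all genes). Vegfd was 2.88-fold higher (adjusted p 4.53e-07), Vegfc 2.51-fold (adjusted p 4.44e-05), the lymphatic receptor Flt4 2.49-fold (adjusted p 8.27e-07) and Nrp2 1.48-fold (adjusted p 0.0109, or 0.0543 at a log2 difference of 0.44 without control skin library 3, and 0.242 at 0.25 with limma on TPM). Those higher in DRG were Pgf 8.0-fold (adjusted p 4.15e-12), Nrp1 4.19-fold (adjusted p 9.41e-11), Vegfb 2.51-fold (adjusted p 6.06e-07), Flt1 2.22-fold (adjusted p 8.52e-06) and Vegfa 1.57-fold (adjusted p 0.000509) in edgeR. Kdr alone did not pass, with a log2 difference of -0.15 (SE 0.23, edgeR adjusted p 0.545).

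In skin of model mice 6 of the 10 members rose and 0 fell (edgeR, adjusted p under 0.05 over 19526 genes), beside 19.9% of all genes called, 14.1% higher and 5.82% lower. At an unadjusted p under 0.05 there were 7 members, Vegfb with them, beside 35.4% of all genes. The 6 were the ligands Vegfa and Pgf, all 3 receptor kinases and Nrp1. Kdr and Nrp1 changed most, by 2.80-fold and 2.63-fold. Nrp2, the leading member of control skin, was lower in model skin without passing the test. The log2 fold change was above 0 for 9 members, with a median of 0.67, beside a median of -0.02 over all genes tested, of which 47.1% were above 0. In these bulk samples, more endothelial or other cells and more RNA per cell cannot be told apart.

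Among the ligands, Vegfa, the main growth factor of blood vessels, had a lowest, median and highest level of 34.3, 38.7 and 47.5 CPM in control skin and of 43.5, 67.1 and 124 CPM in model skin. Of the model libraries 5 lay above every control, library 2 lay within the control range, and library 1 was far above the rest. Vegfa rose 1.82-fold (log2 0.86, SE 0.21, edgeR adjusted p 0.0138), and without model library 1 the log2 fold change was 0.63 (adjusted p 0.00968). Pgf, a ligand of Flt1 that draws in monocytes, had 0.531, 1.18 and 1.38 CPM in control skin and 1.06, 2.03 and 2.57 CPM in model skin. Again 5 model libraries were above all controls, and library 5 was within their range. Pgf rose 1.87-fold (log2 0.91, SE 0.27, edgeR adjusted p 0.0332) from a low level. Its call was lost when control library 1 (adjusted p 0.0538), 5 (0.0779) or 6 (0.0544) or model library 1 (0.0643), 3 (0.05003), 4 (0.0751) or 6 (0.0702) was left out, with log2 fold changes from 0.83 to 0.95 in those edgeR fits.

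The other 3 ligands did not pass. Vegfb, a ligand of Flt1 that is abundant in heart and muscle, had 6.38, 7.74 and 10.8 CPM in control skin and 7.89, 10.9 and 21.8 CPM in model skin, and 3 model libraries were above all controls. Its log2 fold change was 0.62 (SE 0.24, edgeR adjusted p 0.0863), and it passed without control library 2 (0.72, adjusted p 0.0422), model library 2 (0.74, adjusted p 0.0463) or model library 5 (0.74, adjusted p 0.0443). The lymphatic ligand Vegfc ranged from 1.71 to 2.95 CPM in control and from 2.03 to 4.06 CPM in model skin, with a log2 fold change of 0.38 (SE 0.20, edgeR adjusted p 0.191). Vegfd, the other lymphatic ligand, ranged from 4.23 to 12.2 CPM in control and from 7.27 to 14.2 CPM in model skin, with 0.37 (SE 0.25, edgeR adjusted p 0.322). The groups overlapped for all 3. Vegfa stayed the largest share of ligand TPM in model skin, at 53.3 ± 4.53%, and summed ligand TPM was 83.8 ± 22.2 there (SD, n = 6).

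**Figure D2:**
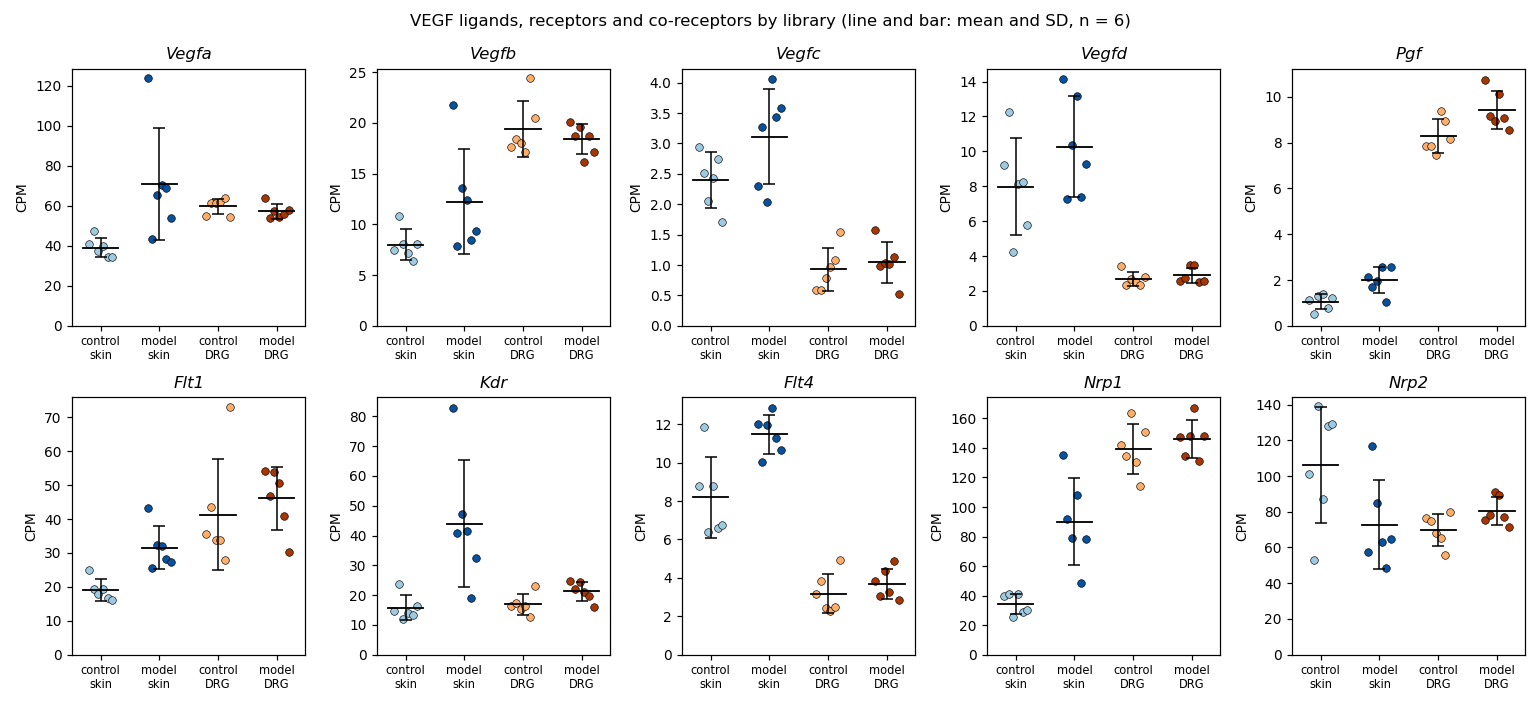
CPM of each member in every library of the 4 groups, with 1 point per library and a line and bar for the mean and SD (n = 6). Each panel has its own axis from 0, and CPM are scaled within each tissue. Model skin lies wholly above control skin for Flt1 and Nrp1, and the DRG groups overlap for every member.

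Kdr, the receptor that carries most endothelial VEGF signalling, had 12, 14.4 and 23.8 CPM in control skin and 18.9, 41.2 and 82.8 CPM in model skin. Model libraries 1 to 6 stood at 82.8, 40.8, 47.3, 41.7, 18.9 and 32.4 CPM, so that library 5 lay within the control range and library 1 far above the others. Kdr rose 2.80-fold (log2 1.49, SE 0.30, edgeR adjusted p 0.00489), and without model library 1 by 1.21 on the log2 scale (adjusted p 0.00645). Flt1, the receptor that also acts as a trap for Vegfa, had 16.2, 18.6 and 25.1 CPM in control skin and 25.6, 30.2 and 43.3 CPM in model skin. All 6 model libraries were above all 6 controls, by a narrow gap. Flt1 rose 1.65-fold (log2 0.72, SE 0.14, edgeR adjusted p 0.00442). Flt4, the receptor of lymphatic vessels, had 6.38, 7.76 and 11.8 CPM in control and 10.1, 11.6 and 12.9 CPM in model skin, where 3 libraries were above all controls. Control library 2 was the only control within the model range. Flt4 rose 1.40-fold (log2 0.49, SE 0.15, edgeR adjusted p 0.0414). That call was lost when control library 1 (adjusted p 0.0590), 3 (0.0907), 4 (0.0583), 5 (0.0943) or 6 (0.0899) or model library 1 (0.0795) or 4 (0.0629) was left out, with log2 fold changes from 0.42 to 0.51. It was also lost without a filter on low counts (edgeR adjusted p 0.0587) and in a fit of all 24 libraries (adjusted p 0.0600).

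Nrp1, the co-receptor that strengthens Vegfa binding to Kdr, had 25.3, 34.8 and 40.9 CPM in control skin and 48.8, 85.4 and 135 CPM in model skin. The groups did not overlap: model library 5 was lowest and library 1 highest. Nrp1 rose 2.63-fold (log2 1.40, SE 0.22, edgeR adjusted p 0.00117). Flt1 and Nrp1 were the 2 members whose groups were wholly apart, which was so for 8.69% of all genes tested in skin, or 7.25% counting those higher in model skin. Nrp2, the co-receptor tied to Vegfc and lymphatic vessels, went the other way, with 53.2, 115 and 139 CPM in control skin and 48.5, 64.1 and 117 CPM in model skin. Control library 2 was the lowest control and model library 2 the highest model library, and the groups overlapped. Its log2 fold change was -0.55 (SE 0.25, edgeR adjusted p 0.142), and it passed at -0.69 (adjusted p 0.0313) without control library 2. The ratio of Nrp1 to Nrp2 in TPM ran from 0.188 to 0.805 in control skin and from 0.810 to 2.45 in model skin, with a mean of 1.39 ± 0.621 there (SD, n = 6). On the TPM scale the order in model skin was Vegfa (44.9 ± 13.9), Nrp1 (31.5 ± 8.84), Nrp2 (24.8 ± 9.04), Vegfb (20.5 ± 7.13), Kdr (15.4 ± 6.26), Vegfd (12.2 ± 2.94), Flt1 (9.95 ± 1.36), Flt4 (4.15 ± 0.420), Vegfc (3.53 ± 1.06) and Pgf (2.57 ± 0.755). Among neighbours in that order, the ranges were apart for Flt1 and Flt4 alone. Nrp2, which led in control skin, thus stood below Vegfa and Nrp1 in model skin, and Kdr stood above Vegfd and Flt1.

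**Figure D3:**
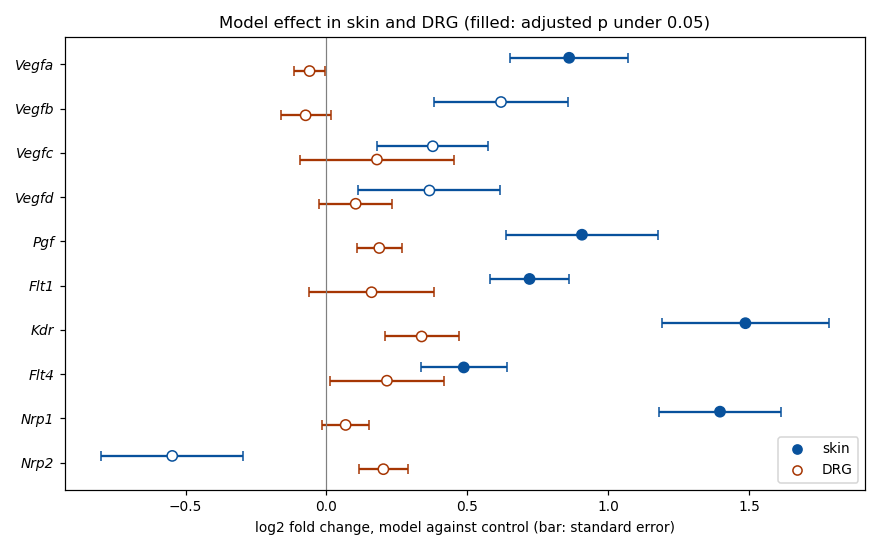
Log2 fold change of model over control for each member in skin and in DRG. Error bars are 1 SE, derived from the F statistic of edgeR, and points are filled where the edgeR adjusted p is under 0.05. The 6 filled points are all in skin and above 0, and the DRG points lie between -0.07 and 0.34.

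Markers of several cell types moved with these differences in skin. Of 10 blood endothelial markers 9 rose, and their sum was 116 to 180 CPM in control and 192 to 328 CPM in model skin, so the groups did not overlap. Of the other lists, 7 of 7 monocyte and macrophage markers (123 to 301 against 412 to 1381 CPM), 5 of 5 adipocyte markers (1038 to 1243 against 1219 to 9175 CPM), 4 of 4 red blood cell markers (21.8 to 77.9 against 44.5 to 191 CPM), 3 of 4 T cell, 2 of 3 neutrophil, 2 of 6 mural and 2 of 5 fibroblast markers rose. Lymphatic endothelial markers summed to 39.2 to 110 CPM in control and 76.5 to 118 CPM in model skin, and 1 of 4 rose. In edgeR 0 of 5 keratinocyte, 0 of 5 hair follicle and 0 of 7 skeletal muscle markers passed, with 0, 4 and 1 of them at an unadjusted p under 0.05. Their part in the members' values was not tested beyond the following fits. With the mean log2 CPM of the endothelial genes as a covariate, the log2 fold changes were 0.06 for Vegfa, -0.23 for Kdr, 0.14 for Flt1, -0.08 for Flt4, 0.16 for Nrp1 and 0.84 for Pgf, and 0 members and 0 of all genes were called. With an adipocyte score they were 0.24 for Vegfa, 0.36 for Kdr, 0.30 for Flt1, 0.30 for Flt4, 0.68 for Nrp1 and 0.65 for Pgf, and 0 members and 7 of all genes were called. The endothelial sums were wholly apart between the groups, and the adipocyte sums were apart except for model library 5, so score and group can be told apart little or not at all. Without these covariates 3892 genes were called.

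Kdr followed the order of the adipocyte markers in model skin, a pairing picked after the values were seen. Their sums in model libraries 1 to 6 were 9175, 2605, 4376, 3662, 1219 and 2374 CPM, the same order as Kdr in all 6. Nrp1 likewise had the order of the blood endothelial sums in the 6 model skin libraries. In control skin 0 of 6 libraries had the same rank in either pairing. A full match in order was present in 3 of 560 combinations of a member, a marker list and a group, the other being Vegfa with hair follicle markers in model DRG, where those markers summed to 1.23 to 2.15 CPM. Nrp2 was high where hair follicle markers were high: in the 5 skin libraries with sums of 742 to 5593 CPM, control library 2 among them, Nrp2 was between 48.5 and 64.9 CPM, and in the 7 with sums of 10494 to 25230 CPM between 85.1 and 139 CPM. Sensory neuron markers split the same libraries alike, at 1.94 to 7.19 CPM in the 5 and 19.0 to 42.5 CPM in the 7. In skin only 2 of these 6 genes had enough counts to be tested. With a hair follicle score as a covariate, a fit added after the data were seen, the log2 fold change of Nrp2 was -0.20 (edgeR adjusted p 0.480), that of Vegfa 0.68 (adjusted p 0.0541), and Flt4 had an adjusted p of 0.0573. With a skeletal muscle score Nrp2 passed at -0.74 (edgeR adjusted p 0.0197).

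**Figure D4:**
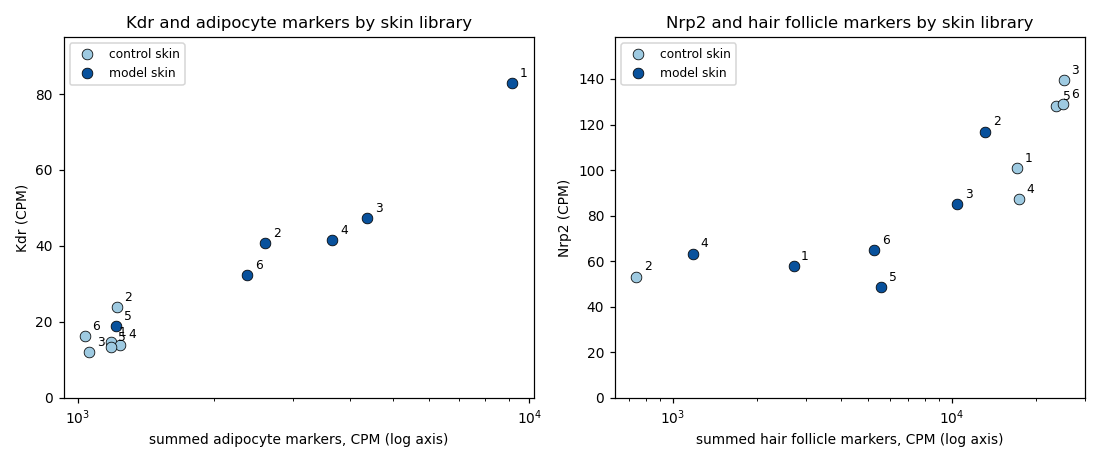
Kdr against the summed adipocyte markers (left) and Nrp2 against the summed hair follicle markers (right) in the 12 skin libraries, all in CPM with a log x axis, numbered by replicate. Model library 1 has the highest Kdr (82.8 CPM) and adipocyte sum, and control library 2 lies with the model libraries low in both Nrp2 and hair follicle markers.

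To set each receptor and co-receptor beside endothelial genes, its log2 ratio to the geometric mean CPM of 10 endothelial genes (Pecam1, Cdh5, Cldn5, Tie1, Tek, Erg, Emcn, Egfl7, Esam and Robo4) was compared between the groups with a two-sided exact permutation test, adjusted over the 10 tests. The neuropilins are not confined to endothelial cells, so their ratios do not compare genes within a cell type. That reference was 11 ± 2.06 CPM in control skin, 20.8 ± 4.31 in model skin, 16.9 ± 5.32 in control DRG and 17.1 ± 2.95 in model DRG (SD, n = 6 each). In skin Kdr was higher relative to it, with log2 ratios of 0.49 ± 0.21 in control and 0.97 ± 0.40 in model (difference 0.48, exact permutation p 0.0238, adjusted 0.0476). Nrp1 was also higher, by 0.45 (exact permutation p 0.0108, adjusted 0.0271). Flt4 was lower, with a difference of -0.39 (exact permutation p 0.0108, adjusted 0.0271), and so was Nrp2, with -1.44 (exact permutation p 0.00649, adjusted 0.0271). The ratio of Flt1 differed by -0.19, which did not pass (exact permutation p 0.152, adjusted 0.216). By this ratio Kdr and Nrp1 differed more than the endothelial genes as a set, and Flt4, although higher in CPM, differed less. In the edgeR fit with the endothelial score as a covariate, neither Kdr nor Nrp1 was called. That fit called 0 of all 19526 genes, and the endothelial sums were wholly apart between the groups. It therefore cannot decide whether Kdr or Nrp1 differed beyond the endothelial genes.

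These skin ratios depended on single libraries and on the reference. The Kdr ratio lost its call without control library 1, 3, 4 or 5 or model library 1, 2, 3, 4 or 6 (differences 0.36 to 0.51, exact permutation adjusted p from 0.0606 to 0.0952). Without model library 1 or 2, 3, 4 or 6 or control library 3, 4 or 5, the Flt4 ratio had an exact permutation adjusted p of 0.0541 (differences -0.42 to -0.31). The Nrp1 ratio had the same adjusted exact permutation p of 0.0541 without control library 3 or 5 or model library 1, 2, 4 or 6 (0.40 to 0.45), and the Nrp2 ratio without control library 3 or 5 or model library 1, 4 or 6 (-1.46 to -1.30). Against Pecam1 alone, Kdr (0.37, exact permutation adjusted p 0.241) and Nrp1 (0.34, adjusted p 0.108) did not pass, while Flt4 (-0.50) and Nrp2 (-1.56) did. Against 4 lymphatic endothelial markers the Flt4 difference in skin was -0.02 (exact permutation adjusted p 0.935).

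**Figure D5:**
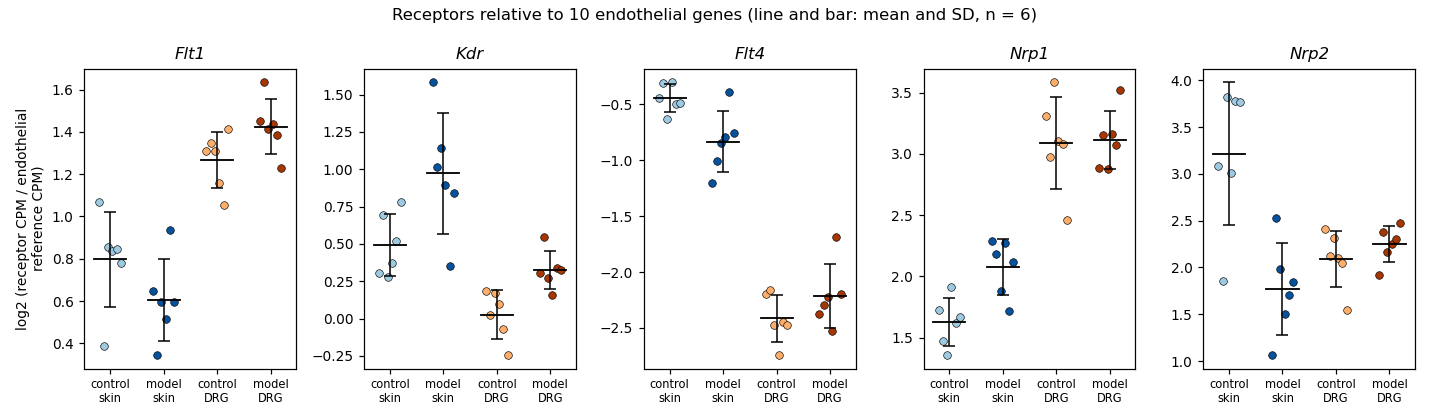
Log2 ratio of each receptor and co-receptor to the endothelial reference in every library, with 1 point per library and a line and bar for the mean and SD (n = 6), in skin and DRG. In skin Kdr and Nrp1 sit higher and Flt4 and Nrp2 lower in the model group, and in DRG the Kdr groups overlap only narrowly.

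In the DRG of model mice 0 of the 10 members passed (edgeR, adjusted p under 0.05 over 19509 genes; DESeq2 also called 0; edgeR called 0 without control library 6 or model library 5), beside 0.0974% of all genes called. At an unadjusted p under 0.05 there were 3 members, Kdr, Pgf and Nrp2, beside 9.34% of all genes. The log2 fold changes of the 10 members ran from -0.07 to 0.34, with a median of 0.17 beside -0.01 over all genes, and 8 were above 0. Of 67 cell type markers tested in DRG 0 were called in edgeR and 7 had an unadjusted p under 0.05. The blood endothelial sum was 154 to 314 CPM in control and 146 to 229 CPM in model DRG.

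Vegfa had 54.6, 61.5 and 63.9 CPM in control DRG and 53.9, 56.5 and 64.0 CPM in model DRG, with a log2 fold change of -0.06 (SE 0.06, edgeR adjusted p 0.757). The groups covered almost the same range. Pgf had 7.48, 8.02 and 9.40 CPM in control and 8.56, 9.12 and 10.7 CPM in model DRG. Model libraries 1 and 4 were above every control, and the log2 fold change was 0.19 (SE 0.08, unadjusted p 0.0332, edgeR adjusted p 0.511). Vegfb ranged from 17.2 to 24.5 CPM in control and from 16.1 to 20.1 CPM in model DRG (log2 -0.07, SE 0.09, edgeR adjusted p 0.825). Vegfc stayed between 0.527 and 1.58 CPM over both groups (log2 0.18, SE 0.27, edgeR adjusted p 0.874) and Vegfd between 2.34 and 3.46 CPM (log2 0.10, SE 0.13, edgeR adjusted p 0.835). The lymphatic ligands were thus scarce in all 12 ganglion libraries.

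Kdr had 12.8, 16.3 and 23.1 CPM in control DRG and 16.2, 21.5 and 24.6 CPM in model DRG. Only model libraries 1 and 3 were above all controls, and control library 6, the library rich in endothelial markers, was the highest control. The log2 fold change of Kdr was 0.34 (SE 0.13, unadjusted p 0.0222, edgeR adjusted p 0.494). Relative to the endothelial reference, its log2 ratio was 0.03 ± 0.16 in control and 0.32 ± 0.13 in model DRG (difference 0.30, exact permutation p 0.00649, adjusted 0.0271), and this passed with any 1 of the 12 DRG libraries left out. Since the adjustment runs over the 10 tests of both tissues, its adjusted value was 0.0541 in exact permutation tests without control skin library 3 or 5 or model skin library 1, 4 or 6. Against Pecam1 alone the difference was 0.31 and did not pass (exact permutation adjusted p 0.146). The same ratio differed by 0.16 for Flt1 (adjusted 0.112), 0.20 for Flt4 (adjusted 0.273), 0.02 for Nrp1 (adjusted 0.918) and 0.16 for Nrp2 (adjusted 0.361) in exact permutation tests. Kdr was therefore the 1 receptor of 5 whose ratio passed in DRG.

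Flt1 had 28.0, 34.8 and 73.0 CPM in control DRG and 30.3, 48.8 and 54.2 CPM in model DRG. Control library 6 was above every other DRG library. The log2 fold change was 0.16 (SE 0.22, edgeR adjusted p 0.856), and 0.39 (adjusted p 0.450) without control library 6. Nrp1, the leading member of the ganglion, had 114, 138 and 164 CPM in control and 131, 148 and 167 CPM in model DRG (log2 0.07, SE 0.08, edgeR adjusted p 0.827). Its groups overlapped almost fully. Nrp2 had 55.7, 71.3 and 79.8 CPM in control and 71.7, 77.7 and 91.1 CPM in model DRG, with model libraries 3 and 4 above all controls (log2 0.20, SE 0.09, unadjusted p 0.0357, edgeR adjusted p 0.517). Flt4 ranged from 2.27 to 4.94 CPM in control and from 2.83 to 4.85 CPM in model DRG (log2 0.21, SE 0.20, edgeR adjusted p 0.759). The order of the members on the TPM scale was the same in model as in control DRG, from Nrp1 (62.9 ± 5.33 TPM) and Vegfa (45.1 ± 2.40) to Flt4 (1.62 ± 0.358) and Vegfc (1.42 ± 0.447 TPM).

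The difference between the model effects in skin and in DRG was tested directly in a fit of all 24 libraries. It passed for 3 of the 10 members, all with the larger effect in skin, beside 17.1% of 17251 genes called (10.6% with the higher and 6.43% with the lower effect in skin). At an unadjusted p under 0.05 there were 6 members, Vegfb, Pgf and Nrp2 being the others, beside 32.7% of all genes. The difference was 1.28 on the log2 scale for Nrp1 (SE 0.23, edgeR adjusted p 0.000692), 1.1 for Kdr (SE 0.32, adjusted p 0.0226) and 0.88 for Vegfa (SE 0.22, adjusted p 0.00846). Nrp2, lower in model skin and slightly higher in model DRG, had a difference of -0.80 (SE 0.28, edgeR adjusted p 0.0506), which passed without control skin library 2 (-0.89, adjusted p 0.00826) or 4 (-0.86, adjusted p 0.0413) or model skin library 2 (-0.99, adjusted p 0.0102) or 3 (-0.86, adjusted p 0.0401). Pgf (0.67, adjusted p 0.0875), Vegfb (0.65, adjusted p 0.0798), Flt1 (0.51, adjusted p 0.185), Flt4 (0.23, adjusted p 0.562), Vegfd (0.22, adjusted p 0.623) and Vegfc (0.16, adjusted p 0.788) did not pass in edgeR. Pgf passed without model skin library 5 (0.79, adjusted p 0.0198), and Vegfb without control skin library 2 (0.79, adjusted p 0.0283) or model skin library 2 (0.74, adjusted p 0.0333) or 5 (0.72, adjusted p 0.0408). So the rise of Flt1, Flt4 and Pgf in skin was not shown to differ from their values in DRG.

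Genes around the family were followed in 9 lists, and in skin their counts stand beside 14.1% of all genes higher and 5.82% lower. Of 8 genes of the hypoxia-inducible factor (HIF) pathway, which controls Vegfa, Epas1 alone rose (66.1 ± 13.5 to 95.0 ± 22.9 CPM, 1.44-fold, edgeR adjusted p 0.0451), with a list median log2 fold change of 0.04. Of 10 hypoxia-induced genes 0 passed in edgeR and 0 in DESeq2, and 1 had an unadjusted p under 0.05, the glycolytic enzyme Pgk1 (log2 0.30, adjusted p 0.133). In that list Ldha had 0.35 (edgeR adjusted p 0.147) and Bnip3 0.58 (adjusted p 0.176), and the median was 0.18.

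Of 16 signal transducers of VEGF receptors 4 rose, with a list median of -0.10. Nos3, the endothelial nitric oxide synthase, rose 3.12-fold (5.82 ± 0.953 to 18.1 ± 9.39 CPM, edgeR adjusted p 0.00215). Sh2d2a, an adaptor found in T cells and at Kdr, rose 5.78-fold with a wide spread in model skin (0.944 ± 0.241 to 5.46 ± 6.68 CPM, adjusted p 0.00967; not called by DESeq2), where T cell markers reached 103 CPM in library 2. Prkcb rose 1.93-fold (edgeR adjusted p 0.0143) and Cdc42 1.19-fold (adjusted p 0.0385). Among 10 genes that VEGF induces in endothelial cells 5 rose and 1 fell in edgeR, with a median of 0.53. DESeq2 called 5 higher and 2 lower, Egr3 being the call that edgeR did not make. The endothelial peptide Apln rose 3.42-fold (edgeR adjusted p 0.000989), the transcription factor Hlx 2.74-fold (adjusted p 0.000553), the urokinase receptor Plaur 3.22-fold (adjusted p 0.00183), the Notch ligand Dll4 2.15-fold (adjusted p 0.00182) and Angpt2 1.77-fold (adjusted p 0.0178). Rcan1, the calcineurin regulator, fell by 0.44 on the log2 scale (edgeR adjusted p 0.0118). Plaur is also made by myeloid cells, whose markers rose in these libraries. The part of myeloid cells in the Plaur level and of T cells in the Sh2d2a level was not tested.

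Of 10 negative regulators of VEGF signalling 4 rose and 0 fell, with a median of 0.49. The receptor phosphatases Ptprj and Ptprb rose 2.56-fold (18.8 ± 2.88 to 48.0 ± 10.9 CPM, edgeR adjusted p 0.000548) and 1.79-fold (adjusted p 0.00428), vasohibin Vash1 1.5-fold (adjusted p 0.00390) and the platelet chemokine Pf4, which macrophages also make, 4.84-fold (adjusted p 0.00161). Genes of class 3 semaphorins and their plexin receptors went both ways: 3 of 12 rose and 4 fell, with a median of -0.04. Plxnd1, the endothelial plexin, rose 2.28-fold (26.8 ± 4.75 to 61.0 ± 13.5 CPM, edgeR adjusted p 0.000654), Sema3g 1.96-fold (adjusted p 0.00340) and Sema3b 1.45-fold (adjusted p 0.0192). Sema3e, a ligand of Plxnd1, fell from 29.9 ± 4.81 to 19.4 ± 5.58 CPM (edgeR adjusted p 0.0251). Plxna2 fell by 0.84 (edgeR adjusted p 0.0370), Plxna3 by 0.43 (adjusted p 0.0413) and Sema3f, a ligand of Nrp2, by 0.37 on the log2 scale (adjusted p 0.0359).

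In the angiopoietin pathway 3 of 5 genes rose, with a list median of 0.82. They were the receptor Tie1 (1.80-fold, edgeR adjusted p 0.00321) and the ligands Angpt1 (1.89-fold, edgeR adjusted p 0.0214) and Angpt2, already named. Tie1 and Tek are also among the 10 blood endothelial markers. The receptor Tek had a log2 fold change of 0.31 (edgeR adjusted p 0.0974). Of 9 Notch genes of vessels 2 rose, Dll4 and Notch4 (1.84-fold, edgeR adjusted p 0.00356), and 2 fell, Jag1 (log2 -0.34, adjusted p 0.0436) and Nrarp (log2 -0.48, adjusted p 0.0455), with a median of -0.15. Among 7 genes of lymphatic growth 3 rose and 0 fell, with a median of 0.30: Gata2 1.86-fold (edgeR adjusted p 0.00340), the integrin Itga9 1.57-fold (adjusted p 0.0144) and the hyaluronan receptor Lyve1 2.29-fold (adjusted p 0.0149). Prox1, the regulator that defines lymphatic endothelium, had a log2 fold change of 0.30 (edgeR adjusted p 0.361), and Lyve1 is also carried by some macrophages. In all, 31 list genes were called in skin, and with the endothelial or the adipocyte score as a covariate 0 were. Those 2 fits called only 0 and 7 of all 19526 genes. Score and group can be told apart little or not at all in them, so they decide nothing about the lists.

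In DRG the 9 lists held 0 genes called by edgeR and 1 called by DESeq2, Plxna2. From 0 to 3 genes a list had an unadjusted p under 0.05 in edgeR. Over all genes in DRG, edgeR called 0.0974% and DESeq2 called 142 of 26731. An unadjusted edgeR p under 0.05 was present in 9.34% of all genes. The antiangiogenic matrix protein Thbs1 had 26.8 ± 21.6 CPM in control and 116 ± 80.9 CPM in model DRG (log2 2.12, edgeR adjusted p 0.422). Plxna2 had a log2 fold change of 0.25 (adjusted p 0.116), the HIF hydroxylase Egln3 0.63 (adjusted p 0.372), Foxc2 1.12 (adjusted p 0.468) and Apln -0.52 (adjusted p 0.468) in edgeR. Thbs1 varied widely among the libraries of each group.

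The genes most like each member were ranked by Pearson's r of log2 CPM after subtracting the group means, over the 24 libraries and 13694 genes of at least 5 CPM. Libraries of a group differed in total counts and in cell type markers. Beyond the CPM scaling this was not adjusted for, so these values describe this set only. For Vegfa they were Fitm2 (0.940), Isca1 (0.928) and Aacs (0.895), for Vegfb Tmem143 (0.935), Gatd3a (0.921) and Mccc2 (0.917), and for Vegfd Mr1 (0.875), Insr (0.875) and Rasl12 (0.853). Fitm2 acts in fat droplet formation and Insr is the insulin receptor. For Pgf they were Arpc3 (0.854), Cndp2 (0.823) and S100a6 (0.792), and for Vegfc, with the weakest likeness, Mall (0.713), Csf2rb2 (0.690) and Icam1 (0.666). Among the receptors Flt1 was nearest to Adcy4 (0.916), Ptprb (0.905) and Podxl (0.886), and Flt4 to Ltbp1 (0.804), Fgd5 (0.793) and Pdgfb (0.778). Ptprb, Podxl and Fgd5 are genes of endothelial cells. Kdr was nearest to C130074G19Rik (0.897), 4931406C07Rik (0.875) and Ephx2 (0.872). Nrp1 was nearest to Acp2 (0.915), Eif2ak2 (0.906) and Lgals9 (0.904), and Nrp2 to Rnaset2b (0.946), Heyl (0.935) and Cux1 (0.933). Members were left out of the ranking.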

How the data were processed

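Skin and DRG libraries were grouped by sample title. HISAT2 2.1.0, StringTie 2.1.3b, bcl2fastq 2.20.0, Trimmomatic and the build GRCm38/mm10 are named in the submitters' processing notes; the counting and strand settings are not given in the sources used. The authors deposited unnormalized whole-number counts for each gene. TPM values were computed by the authors and used for levels of different genes. FPKM columns were not used.

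Each tissue was fitted in edgeR 4.0.16 (R 4.3.3) with filterByExpr, TMM scaling and the robust quasi-likelihood test, and p-values were adjusted over all genes tested by Benjamini-Hochberg. The tissue difference and the control tissues were contrasts in 1 fit of 24 libraries. An SE given for an edgeR log2 fold change is its absolute size divided by the square root of the test's F statistic. CPM are TMM-scaled within each tissue, so CPM of skin and of DRG are not on 1 scale. For the genes most like each member, CPM are scaled over all 24 libraries. Marker sums are of total counts. Receptor ratios were tested over all 924 arrangements. The edgeR script was tested on simulated data. Alternatives used DESeq2 1.42.0 and limma 3.58.1, other filters, factors, covariates and references, a replicate block and each library left out. The members and lists were chosen with earlier results of these data known. All members were named, and from each list up to 4 genes with the smallest p in skin and 2 in DRG, other called genes being added to complete a count. A result on the signal transducers is not reported here. Same-numbered libraries were not paired (see the dependence on processing). Of 60 pairs of libraries within groups, none were duplicates: the lowest chi-square per gene was 9.13. A member's count in a library was at least 25.

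Exons of 9 members overlap no other gene in the GENCODE M21 annotation. Those of Nrp1 overlap Mir1903 over 80 bases, 0.818% of its exon bases.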

Additional observations from a re-analysis of the deposited data

Results flagged for a closer look

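In 4 of the 40 sets of 6 libraries (10 members in 4 groups), the highest library lay far from the others, with a gap over 0.625 of the whole range of the set; chance gives about 1 in 20 such sets. Vegfa was 124 CPM in model skin library 1, and the next library had 70.5 CPM. That library also had the highest adipocyte sum of all skin libraries, and the part of this in its Vegfa level was not tested. Flt1 was 25.1 CPM in control skin library 1, against 19.4 CPM in the next. Kdr was 23.8 CPM in control skin library 2, against 16.2 CPM in the next, and this is the control library with few hair follicle markers. Flt1 was 73.0 CPM in control DRG library 6, against 43.5 CPM in the next, and this library had the highest endothelial sum in DRG.

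The model effect differed between skin and DRG, by a test of the difference itself in edgeR, for Vegfa (0.88 on the log2 scale), Kdr (1.1) and Nrp1 (1.28). In DRG the log2 fold changes of these 3 genes were -0.06, 0.34 and 0.07.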

How the results depend on the processing

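Vegfa, Flt1, Kdr and Nrp1 passed in skin with each library left out in turn. The number of members called in skin was 6 in DESeq2, and 0 with the endothelial score and 0 with the adipocyte score as a covariate. All genes called in skin were 0 with the endothelial score, 7 with the adipocyte score and 6489 in a fit of 24 libraries. Called pathway genes were 0, 0 and, with the hair follicle score added after seeing the data, 20. With the endothelial score the sign turned for Vegfd (-0.77), Flt4 (-0.076), Kdr (-0.23), Nrp2 (0.15) and Vegfb (-0.56), and with the adipocyte score for Vegfd (-0.30) and Vegfb (-0.25). All genes called in DRG were 142 in DESeq2, 12 with a filter of 1 CPM in 6 libraries and 33 in a fit of 24 libraries. The sign of Vegfa in DRG turned with limma on TPM (0.00497). Of the receptor ratios 2 passed against Pecam1 alone and 3 against lymphatic markers, where Flt4 in DRG turned to -0.0225.

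With libraries left out, calls in skin ran from 2564 (without control 5) to 6278 (without control 2) over all genes and from 4 to 8 over members, calls in DRG from 11 to 36 and 0, and calls for the tissue difference from 2229 to 4646 (without skin control 2) and from 3 to 5. From 0 to 6 receptor ratios passed, with 0 when control skin library 3 or 5, or model skin library 1, 4 or 6, was left out. Vegfb in DRG ran from -0.11 to 0.00398, the Vegfc tissue difference from -0.0495 to 0.32 and the Nrp1 ratio in DRG from -0.10 to 0.12.

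The replicate block gave 6 genes in DRG and 2804 in skin, where Flt4 was lost (0.52, edgeR adjusted p 0.0754). Deviations of same-numbered control and model libraries correlated by -0.56 to 0.32 in skin and by -0.55 to -0.06 in DRG. In 0 of 6 pairs of either tissue did a library correlate best with its own number. The numbers were therefore not taken to pair control with model libraries. They are those of the sample titles. The library names number the model libraries otherwise, and pairing control with model libraries by those names was not tested. Between same-numbered skin and DRG libraries the correlations were -0.05 to 0.09 in control and -0.17 to 0.07 in model mice, with 2 of 6 and 1 of 6 best with their own number. In the fit of 24 libraries Nrp2 (-0.59, edgeR adjusted p 0.0233) and Vegfb (0.58, adjusted p 0.0182) passed in skin. The Nrp2 tissue difference passed with RLE factors (edgeR adjusted p 0.0480) and in DESeq2 (adjusted p 0.0338). Counts as low as 25 a library limit Pgf and Vegfc.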
